A study of Mus musculus with 92 samples.

Results

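The livers described here came from male wild-type CD-1 mice, an outbred strain, that received HFPO-DA by oral gavage once a day for 9 months at 0.5 mg/kg (5 animals) or 0 mg/kg (4 animals). These 9 libraries were taken by sex, dose and duration from a series of 92 libraries in 20 groups, which covered both sexes, 9 and 18 months, and 0, 0.05, 0.1, 0.5 and 5 mg/kg. Groups are called by their dose below, and unless another sex or duration is given, they are 9-month males. HFPO-DA, the dimer acid of hexafluoropropylene oxide, is a fluorinated ether carboxylic acid. RNA was measured by TempO-Seq, in which pairs of short detector oligos are ligated on their target transcript and counted, in sections scraped from slides of formalin-fixed, paraffin-embedded liver. Each library is 1 animal per the labels, so n counts animals. A section holds all cell types of the liver, and in such bulk samples fewer cells of a type and less RNA per cell cannot be told apart.

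PPAR-alpha is a nuclear receptor of hepatocytes that is activated by fatty acids and by compounds that resemble them. It binds DNA together with a retinoid X receptor and switches on genes that take up fatty acids, hydroxylate their ends (omega-oxidation), shorten them in peroxisomes and mitochondria, and split or bind their CoA esters. In rodents, prolonged activation of this receptor is known for an increase in peroxisomes and for liver enlargement.

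The 9 libraries held 4607861 to 6319488 counts and 11576 to 13018 detected genes, and a level below is in CPM, a gene's summed probe counts scaled to a common library size. In the 4 controls, Pearson's r of log levels across genes with the other controls was 0.904 to 0.919. Replicate 4 of the 0.5 mg/kg group stood apart from its group, with r of 0.872 to 0.883, where other pairs of that group reached 0.934. Its summed lymphocyte and plasma cell markers were at 1156 CPM, against 35.7 to 72.8 in the other 4 dosed livers and 36.7 to 63.6 in the controls. Among them the B cell receptor gene Cd79a was at 185 CPM and the antibody light chain gene Igkc at 265. Its red blood cell markers were at 547 CPM (108 to 201 in the other 4) and its 9 hepatocyte markers at 13850 CPM (19260 to 33450 in the other 4, 25270 to 31710 in the controls). That sum rests largely on Apoa1, at 5468 CPM in replicate 4 and 9710 to 19030 in the other 4. Apoa2 (1399 CPM, others 1154 to 1605) and Ttr (1549 CPM, others 1396 to 2001) were not low there, while the remaining hepatocyte markers were lowest in replicate 4 of the dosed livers. Hepatocyte markers such as Alb and Apoa1 were abundant in all 9 livers. Adipocyte markers, all 5 of which were at 0 in every control, summed to 0 to 1.2 CPM at 0.5 mg/kg, and Lep, Retn and Plin1 were at 0 in all 9. The other markers overlapped between the groups: macrophage 244 to 323 CPM in controls and 208 to 426 at 0.5 mg/kg, endothelial 462 to 677 and 463 to 589, stellate and matrix 238 to 293 and 206 to 373, cholangiocyte 21.4 to 73.7 and 18.2 to 47.1.

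**Figure D1:**
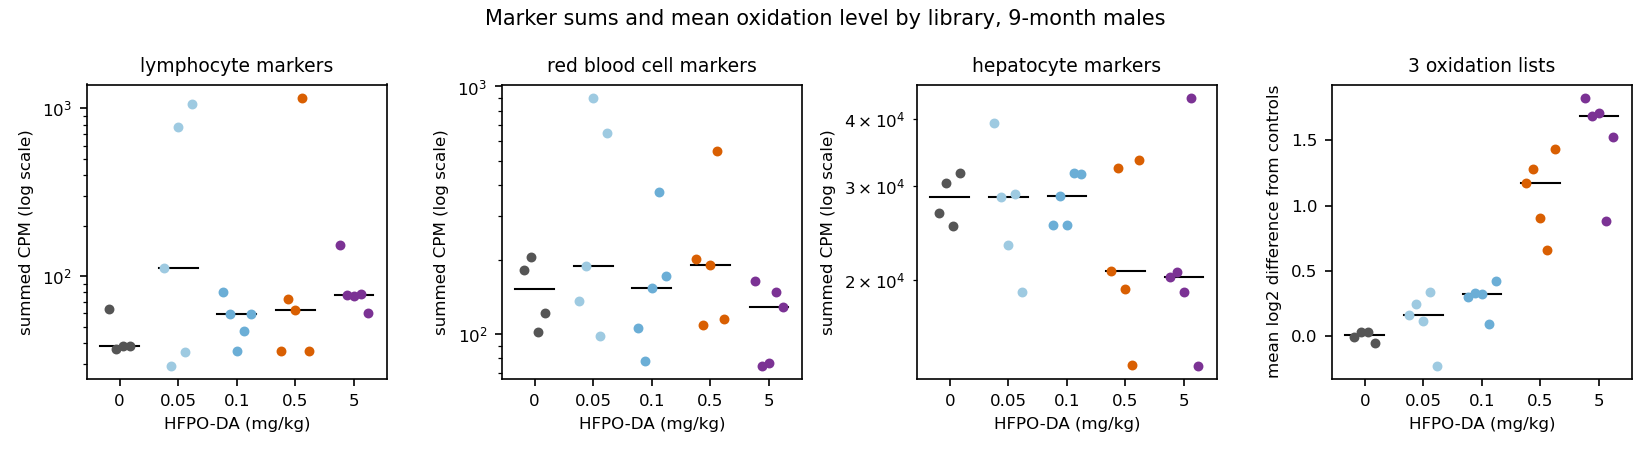
Summed marker levels (CPM, log axis) of lymphocytes, red blood cells and hepatocytes, and the mean log2 difference from the control mean over 55 genes of the 3 oxidation lists (linear axis), against dose in mg/kg; each point is 1 library and each bar the group median. Replicate 4 at 0.5 mg/kg is the point at 1156 CPM of lymphocyte markers, and at 0.05 mg/kg 2 libraries are at 775 and 1058.

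The comparison of 0.5 with 0 mg/kg asked which liver transcripts differed after 9 months at this dose. Genes of fatty acid breakdown and uptake were among the rises: the peroxisomal enzyme gene Ehhadh was 9.44-fold higher, the omega-hydroxylase genes Cyp4a14 and Cyp4a10 46.1-fold and 27.6-fold, and the transporter gene Cd36 12.3-fold. Far fewer genes fell, among them the bile acid enzyme gene Cyp2c70 (2.53-fold lower) and the lipoprotein gene Apoa4 (4.7-fold lower). Of 11371 genes tested with edgeR's quasi-likelihood test, 61 were called higher (0.536%) and 11 called lower (0.0967%), where called means a Benjamini-Hochberg adjusted p under 0.05 over all genes tested. All 5 dosed libraries lay above all 4 controls in 270 genes (2.37%) and below them in 196 genes (1.72%). Of the called genes, 59 of the 61 higher and all 11 lower ones were separated in this way, and Ttll11 and Ssh2 were the exceptions. The count depended on single animals: it was 33 to 68 higher and 4 to 15 lower without each of the 9 libraries in turn. Without control replicate 4 it was 33 and 4, and without 0.5 mg/kg replicate 3 it was 68 and 15. Of the 72 called genes, 31 were called in each of these 9 runs and 41 were lost in at least 1. Without the lymphocyte-rich replicate 4, 63 genes were called higher and 11 lower, and 62 of the 72 were among them.

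Fatty acids that leave their usual route are hydroxylated at the far end of the chain by the Cyp4a enzymes. Cyp4a14 was at 9.19, 5.1, 7.74 and 2.37 CPM in the 4 controls and at 217, 402, 96.6, 153 and 542 CPM in the 5 livers at 0.5 mg/kg. The lowest dosed liver was thus far above the highest control, and the log2 change was 5.53 ± 0.65 (SE; adjusted p = 0.000105). Cyp4a10 was at 40.7, 24.1, 54.2 and 19.4 CPM in controls and at 858, 1384, 385, 533 and 1617 CPM at 0.5 mg/kg, a log2 change of 4.79 ± 0.58 (adjusted p = 0.000105). Cyp4a31 rose from 50.1 ± 11.5 CPM (SD, n = 4) to 354 ± 235 (n = 5). In all 3 genes dosed replicates 2 and 5 were highest and replicates 3 and 4 lowest. These Cyp4a genes are close relatives, and whether their probes tell them apart was not tested.

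Aldh3a2 oxidises the fatty aldehydes that follow omega-hydroxylation. Its levels were 372, 718, 780 and 403 CPM in controls and 2466, 2599, 2220, 1932 and 3930 CPM at 0.5 mg/kg, without overlap (log2 change 2.21 ± 0.27, adjusted p = 2.91e-05). Acot1, Acot2 and Acot3 encode thioesterases that split acyl-CoA into fatty acid and CoA, in the cytosol, mitochondria and peroxisomes. Acot1 was at 37.8, 63.5, 76.3 and 45.7 CPM in controls and at 305, 416, 377, 256 and 524 CPM at 0.5 mg/kg (log2 change 2.75 ± 0.37, adjusted p = 0.000267). Acot2 rose from 4.33 ± 1.78 to 23.7 ± 8.24 CPM, and Acot3 from 12.9 ± 10.8 to 125 ± 51.5. Acot1 and Acot2 have very similar sequences, so their separate values are uncertain in the same way as those of the Cyp4a genes. Of the 13 genes of omega-oxidation and thioesterases tested, these 7 were called higher and 0 lower, and the list's median log2 change was 2.21, where the median of all genes tested was 0.03. Acot3 lost its call without 6 of the 9 libraries (adjusted p up to 0.118), while the other 6 were called in all 9 runs.

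In peroxisomes, acyl-CoA chains enter through ABC transporters and are shortened by a series of enzymes. Ehhadh, the bifunctional enzyme, was at 375, 343, 609 and 470 CPM in controls and at 3995, 5338, 2587, 3050 and 6247 CPM at 0.5 mg/kg. This was the smallest adjusted p of the comparison (log2 change 3.24 ± 0.3, adjusted p = 2.84e-07), and it was at most 1.08e-05 without any 1 library. Acaa1b, a thiolase, rose from 12.4 ± 6.68 to 53 ± 13.2 CPM, and Pex11a, which takes part in peroxisome division, from 28.4 ± 6.85 to 105 ± 20.3. Crat, a carnitine acetyltransferase that lets short acyl groups leave the organelle, rose from 7.52 ± 4.64 to 33.1 ± 9.43 CPM.

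The membrane transporter genes Abcd3 and Abcd2 were also called higher. Abcd3 was at 66.5, 73.3, 92.7 and 67.9 CPM in controls and at 191, 155, 105, 104 and 185 CPM at 0.5 mg/kg (log2 change 0.98, adjusted p = 0.0105). Abcd2 rested on 3 counts in all 4 controls together, against 84 counts in the dosed livers, a ratio of 21.4 with a 95% counting interval of 7.08 to 106. Dosed replicate 1 had 8.14 CPM of it and the other 4 had 1.61 to 2.36. Of 21 peroxisomal genes tested, 7 were called higher and 0 lower, with a median log2 change of 0.73. Abcd3 lost its call without control replicate 1 or 4 (adjusted p = 0.0593 and 0.0628) and Abcd2 without 7 of the 9 libraries (adjusted p up to 0.179).

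Mitochondrial beta-oxidation starts with carnitine palmitoyltransferase at the outer membrane. Cpt1b, the muscle-type form of that enzyme, was at 3.32, 6.12, 16.2 and 8.04 CPM in controls and at 23.9, 34.7, 30.2, 23.1 and 65.2 CPM at 0.5 mg/kg. The groups did not overlap and dosed replicate 5 was the highest (log2 change 2.06 ± 0.4, adjusted p = 0.0108). Decr1, the 2,4-dienoyl-CoA reductase for unsaturated chains, was at 349, 381, 318 and 275 CPM in controls and at 723, 865, 771, 616 and 1038 CPM at 0.5 mg/kg (log2 change 1.28 ± 0.18, adjusted p = 0.000141). Eci1, an isomerase for unsaturated chains, and Hadhb, a subunit of the trifunctional protein, were 2.16-fold and 1.94-fold higher. Etfdh passes electrons from these steps to the respiratory chain and was 1.97-fold higher (38.5 ± 12.2 to 75.9 ± 14.4 CPM). These 5 of the 21 mitochondrial genes tested were called higher and 0 lower. The median of the list was 0.71, and all 21 members had a log2 change above 0. Cpt1b lost its call without control replicates 1, 2 or 4 (adjusted p = 0.0504, 0.0569 and 0.0605) and Etfdh without 6 of the 9 libraries, while Decr1, Eci1 and Hadhb kept theirs in all 9 runs.

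Averaged over 55 genes tested in these 3 oxidation lists, the log2 difference from the control mean was 1.17, 1.28, 0.9, 0.66 and 1.43 in the 5 livers at 0.5 mg/kg, and -0.06 to 0.03 in the controls. Each dosed liver was above each control, and the lymphocyte-rich replicate 4 was the lowest of the 5. The part of that library's other cells in its lower value was not tested.

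**Figure D2:**
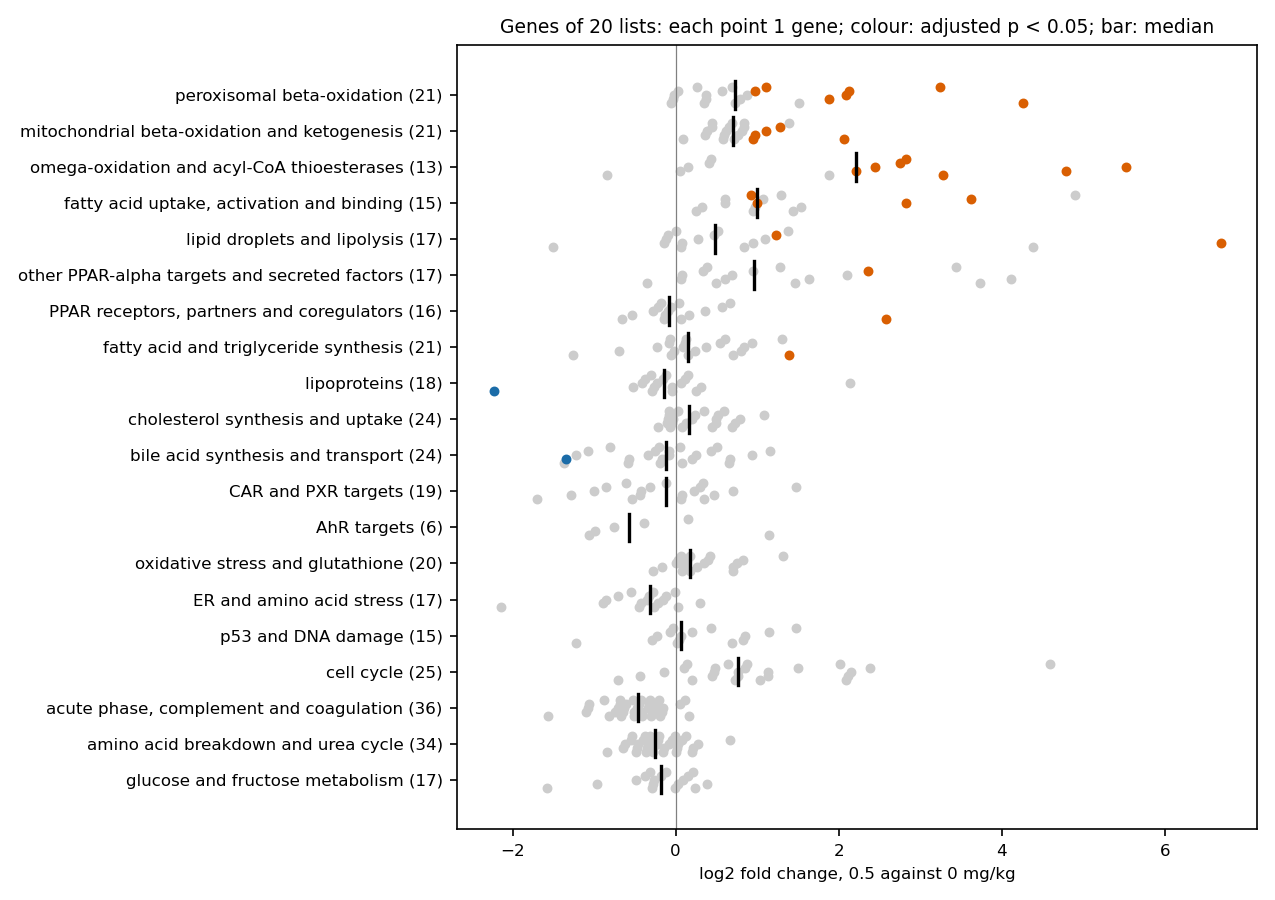
Log2 fold change at 0.5 against 0 mg/kg (horizontal axis) for the genes of 20 lists, with the number tested in brackets; each point is 1 gene, coloured where its adjusted p was under 0.05 (orange higher, blue lower), and the black bar is the list's median. The omega-oxidation list has its median at 2.21, and the lists from CAR and PXR targets downwards hold no coloured point.

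Fatty acid uptake, activation and binding form the steps before oxidation. Cd36, the membrane fatty acid transporter, was at 9, 9.8, 4.61 and 6.94 CPM in controls and at 72.9, 116, 59.8, 85.2 and 132 CPM at 0.5 mg/kg, with a wide gap between the groups (log2 change 3.62 ± 0.5, adjusted p = 0.000448). Fabp1, the abundant fatty acid binding protein of liver, was at 6892, 6194, 5461 and 4339 CPM in controls and at 12490, 12880, 10110, 8305 and 13520 CPM at 0.5 mg/kg, 2-fold higher on the fit (adjusted p = 0.0105). Slc27a1, a fatty acid transport protein, rose from 7.44 ± 2.45 to 53.2 ± 37.1 CPM. Dbi, which binds acyl-CoA, rose from 233 ± 12.2 to 441 ± 72.4 CPM. These 4 of 15 genes were called higher and 0 lower, with a median of 1.0 and all 15 above 0. Fabp1 lost its call without control replicate 3 or 4 (adjusted p = 0.0595 and 0.0851).

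Among 17 lipid droplet genes 2 were called higher and 0 lower, with a median log2 change of 0.48. Cidec, which enlarges droplets, was at 0 in all 4 controls and at 2.08, 0.48, 1.81, 3.51 and 2.9 CPM at 0.5 mg/kg, at least 16.1-fold higher when the controls are set to 3 counts over the group. Fitm1, which takes part in droplet formation, rose from 23.1 ± 5.6 to 54 ± 9.92 CPM. Both lost their calls without 5 of the 9 libraries. Mgll, a monoacylglycerol lipase, was not called (101, 119, 123 and 84.4 CPM against 190.1, 176, 161, 174 and 255, adjusted p = 0.0856), although its groups did not overlap. Of the 17 droplet genes 3 lay wholly above the controls, beside 2.37% of all genes tested. Of 17 other PPAR-alpha targets and secreted factors, Retsat alone was called, while the list's median was 0.96. Retsat, a retinol saturase, was at 124, 143, 199 and 164 CPM in controls and at 546, 1081, 443, 494 and 1494 CPM at 0.5 mg/kg (log2 change 2.36 ± 0.41, adjusted p = 0.00405). The glycerol channel gene Aqp3 (log2 change 4.12, adjusted p = 0.0727) and the uncoupling protein gene Ucp2 (1.63, adjusted p = 0.14) missed the threshold. Both passed it without the 3 lymphocyte-rich libraries of 9-month males, an alternative chosen after seeing the data (4.36, adjusted p = 0.0313, and 1.35, adjusted p = 0.00133). Pdk4, which limits glucose oxidation, and the hormone gene Fgf21 were low in all 9 livers, with log2 changes of 1.28 and 0.96 (adjusted p = 0.618 and 0.712).

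The transcript of the receptor itself was not called. Ppara was at 132, 201, 128 and 91.5 CPM in controls and at 184, 195, 235, 77.9 and 192 CPM at 0.5 mg/kg, with overlapping groups (log2 change 0.36 ± 0.31, adjusted p = 0.785). Pparg, the related receptor of fat storage, was the 1 member called higher of 16 receptors and coregulators, and the list's median was -0.08. It was at 2.93, 2.25, 0.37 and 1.1 CPM in controls and at 3.98, 13.2, 8.67, 10.1 and 14.1 CPM at 0.5 mg/kg (log2 change 2.58, adjusted p = 0.0075, or 0.0533 without control replicate 4). In fatty acid and triglyceride synthesis, the desaturase gene Scd1 was the 1 call among 21 genes, with 164, 238, 119 and 154 CPM in controls and 312, 536, 384, 416 and 568 CPM at 0.5 mg/kg (2.63-fold, adjusted p = 0.0176). That call was lost without 4 of the 9 libraries (adjusted p up to 0.0851). The malic enzyme gene Me1 (log2 change 1.31) and Mlxipl (-0.69), the carbohydrate-response factor gene, were not called, at adjusted p = 0.121 and 0.149. Their groups did not overlap. Of the 21 genes 2 lay wholly above the controls and 1 below, beside 2.37% and 1.72% of all genes tested. Me1 was at 109 to 238 CPM in controls and 329 to 579.5 at 0.5 mg/kg, and Mlxipl at 186 to 239 and 95.85 to 159.

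PPAR-alpha and its partner bind a direct repeat of the hexamer AGGTCA with 1 base between the copies. RefSeq promoters (GRCm38.p6, 250 bases before to 50 after each gene's start) matched 51 of the 72 called genes. The repeat was searched on both strands and could overlap other motifs, with at most 2 mismatches over both copies. It stood in 1268 of 32851 promoters in all (3.86%), in 359 of the 11479 of tested genes (3.13%) and in 3 of the 53 of genes called higher (5.66%). With at most 1 mismatch these were 182 (0.554%), 54 (0.47%) and 1 (1.89%). None of the 10 promoters of genes called lower held it at either setting. The 3 promoters were those of Fabp1, Cd36 and Mpp1, shown because they join a called gene to the letters of the repeat. Each is printed 5′ to 3′ along the gene's strand, with the matched bases in capitals and 15 bases on each side.
Fabp1, chr6:71199797-71199839, plus strand, 1 mismatch, on the other strand, from position -67: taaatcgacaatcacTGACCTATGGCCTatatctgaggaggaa
Cd36, chr5:17835932-17835974, minus strand, 2 mismatches, on the other strand, from position -63: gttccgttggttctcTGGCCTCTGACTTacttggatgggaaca
Mpp1, chrX:75131189-75131231, minus strand, 2 mismatches, on the same strand, from position -200: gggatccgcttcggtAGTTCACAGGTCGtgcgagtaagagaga
Positions are counted from the gene's start. Mpp1, a membrane-associated scaffold gene outside the lists, rose from 65.7 ± 13.9 to 124 ± 9.92 CPM. A match here is a description of letters in a 300-base window, and promoters of the same gene overlap.

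Outside the lists, other lipid and mitochondrial genes were called higher, named here after their values were seen. They included Ddhd2, a lipase (136 ± 13.1 to 390 ± 149 CPM, adjusted p = 0.000101), Nceh1, a cholesterol ester hydrolase (71.4 ± 9.74 to 173 ± 73.2), Gpat3, an acyltransferase that starts glycerolipid synthesis (19.2 ± 8.68 to 53.6 ± 19.7), and Hsd17b11, a dehydrogenase found on lipid droplets (308 ± 46.3 to 1018 ± 526). Acat1, a mitochondrial thiolase of ketone metabolism, rose from 137 ± 11 to 254 ± 31.2 CPM, and Micu2, a regulator of mitochondrial calcium uptake, from 139 ± 17.4 to 291 ± 70.3. Ddhd2, Acat1 and Micu2 were called in all 9 runs without 1 library, Nceh1 and Gpat3 in 5 and Hsd17b11 in 3.

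Some of the largest rises started from levels at or near 0. Cox6b2, a subunit isoform of cytochrome c oxidase known from testis, was at 0 in all 4 controls and at 5.3, 6.23, 3.97, 3.22 and 10.5 CPM at 0.5 mg/kg, at least 39.8-fold higher against 3 counts over the controls. Slc35f2, a solute carrier gene, had 1 count in the controls together and 8.9, 5.27, 5.78, 5.86 and 4.35 CPM in the dosed livers. Its ratio was 126 with a counting interval of 22.3 to 5015. Sptlc3, a subunit of serine palmitoyltransferase, also had 1 control count, and dosed replicate 5 was at 14.9 CPM where the other 4 were at 1.32 to 4.88. All 3 were called in every run without 1 library (adjusted p up to 0.0015, 0.0344 and 0.0392). Rims2, a gene of synaptic vesicle release, had 2 control counts against 220 in the dosed livers (2.63 to 13.2 CPM, adjusted p = 0.0232), and its call was lost without 6 of the 9 libraries. Gm49366 rose from 1.55 ± 2.13 to 20.9 ± 6.14 CPM and Mthfd1l, a mitochondrial folate enzyme, from 0.84 ± 0.89 to 8.38 ± 5.64, with calls lost in 3 and 8 of the 9 runs.

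Genes of bile acids, lipoproteins and steroids were among the 11 that fell. Cyp2c70, which makes the muricholic acids of mouse bile, was at 1319, 1218, 1375 and 1794 CPM in controls and at 560.4, 668, 526, 292 and 769.9 CPM at 0.5 mg/kg. The groups did not overlap (log2 change -1.34 ± 0.29, adjusted p = 0.0197), and the call was lost without control replicates 1, 3 or 4 or dosed replicate 1 (adjusted p up to 0.106). Cyp2c68, a relative of it, had 55.2 ± 16.9 CPM in controls and 22.4 ± 6.83 at 0.5 mg/kg (adjusted p = 0.0286), and its call was lost without control replicates 2 or 4 or dosed replicates 1 or 4 (adjusted p up to 0.161). Apoa4, a lipoprotein of liver and intestine, was at 160, 256, 132 and 136 CPM in controls and at 32, 51.8, 39.4, 23.9 and 35.7 CPM at 0.5 mg/kg (log2 change -2.23 ± 0.43, adjusted p = 0.0117, or 0.0524 without control replicate 2). It was the 1 call among 18 lipoprotein genes, whose median was -0.14. Hsd3b2, a 3-beta-hydroxysteroid dehydrogenase, was at 399, 353, 261 and 445 CPM in controls and at 79.9, 115, 80.9, 51.2 and 60.7 CPM at 0.5 mg/kg (log2 change -2.23 ± 0.44, adjusted p = 0.014). That call was lost without control replicate 4 or dosed replicate 5 (adjusted p = 0.059 and 0.0528). Of 24 bile acid genes tested, Cyp2c70 was the 1 called, and the list's median was -0.12. The bile salt export pump gene Abcb11 was close to the threshold (456, 303, 423 and 530 CPM against 283, 228, 183, 194 and 338, adjusted p = 0.0616), and the oxysterol hydroxylase gene Cyp7b1 had a log2 change of -1.37 (adjusted p = 0.355).

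The remaining 7 falls were in genes outside the lists. Gabpb2, a subunit of the transcription factor GABP, was at 81.8, 70.6, 82.9 and 96.6 CPM in controls and at 17.8, 18.4, 26.4, 34.2 and 23.4 CPM at 0.5 mg/kg (log2 change -1.78 ± 0.22, adjusted p = 2.91e-05). Tested singly, 1 of its 2 probes was called (log2 change -4.04, adjusted p = 0.00222) and the other was at -0.32 (adjusted p = 0.809). Stip1, a cochaperone, was at 19.95, 23.3, 49.2 and 41.8 CPM in controls and at 5.3, 11, 15, 12.3 and 8.88 CPM at 0.5 mg/kg (adjusted p = 0.0104). Lrtm1, a membrane protein gene, had 96 counts in the controls and 1 in the dosed livers, all in replicate 3, a ratio of 126 with a counting interval of 22 to 5008. 2010003K11Rik fell from 23.3 ± 5.37 to 3.08 ± 2.27 CPM, Akap8l, a nuclear anchoring protein gene, from 45 ± 13.1 to 11.1 ± 2.37, Ccnl1, a cyclin linked to splicing, from 71.8 ± 9.87 to 40.8 ± 10.5, and Cspp1, a centrosome protein gene, from 85.8 ± 8.57 to 53.4 ± 2.32. Gabpb2 and 2010003K11Rik were called in all 9 runs without 1 library. Stip1 lost its call without control replicate 3 or 4 (adjusted p = 0.0709 and 0.059), and Lrtm1, Akap8l, Ccnl1 and Cspp1 lost theirs in 4 to 6 runs.

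Several gene groups held no called gene at 0.5 mg/kg. Over all genes tested, 0.536% were called higher and 0.0967% lower. At such shares a short list is likely to hold 0 calls, so 0 calls here and in the next paragraph is a description only. The 24 genes of cholesterol synthesis and uptake had a median log2 change of 0.16, with Pmvk at 0.7 and Nsdhl at 0.73 not called (adjusted p = 0.242 and 0.276). CAR and PXR are nuclear receptors that sense drugs, and their 19 targets had a median of -0.12. Cyp2b10, the classical CAR target, was at 32.9, 120, 62.5 and 93.3 CPM in controls and at 27.1, 40.3, 64.3, 93.1 and 41.3 CPM at 0.5 mg/kg, and Cyp3a11, the classical PXR target, had a log2 change of -0.44 (adjusted p = 0.812 and 0.65). Cyp3a13 (1.48), Cyp2c50 (-1.28) and Cyp2c29 (-1.0) had the smallest p-values of that list and were not called, at adjusted p = 0.164, 0.28 and 0.468. The 6 genes of the aryl hydrocarbon receptor had a median of -0.57, with Cyp1a2 at -0.39 and Ugt1a6a at -1.06 (adjusted p = 0.89 and 0.251). None of these 3 receptor groups had a member past the threshold in either direction. Cyp2c29 still did not overlap between the groups, at 1171 to 1926 CPM in controls and 640 to 884 at 0.5 mg/kg. Nor did Ugt1a6a (117 to 164 and 44.8 to 78.1 CPM) or Cyp3a13 (13.9 to 17.1 and 21.7 to 67.6 CPM). Of the 19 CAR and PXR targets, 1 lay wholly above the controls and 2 below, and of the 6 aryl hydrocarbon receptor genes 0 and 1. Over all genes tested these shares were 2.37% and 1.72%.

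Of the 36 acute phase, complement and coagulation genes, 0 were called, 3 had a log2 change above 0 and the median was -0.46. The complement gene Hc was nearest to the threshold (615, 670, 832 and 698 CPM against 377, 518, 372, 299 and 440, adjusted p = 0.0683). The 34 genes of amino acid breakdown and the urea cycle (median -0.25), 17 of glucose and fructose metabolism (-0.18), 20 of oxidative stress (0.18), 17 of ER stress (-0.32) and 15 of the p53 response (0.07) also held 0 calls. The glycolytic gene Pklr was at 55.9, 29.2, 29.1 and 26.7 CPM in controls and at 13.2, 20.4, 26.9, 19.5 and 10.5 CPM at 0.5 mg/kg (adjusted p = 0.0964). Male-biased liver genes, 19 tested, had a median of -0.64 with 0 called, and 19 female-biased genes a median of -0.02. Genes of hepatocytes near the central vein (15 tested, median -0.23) and near the portal tract (14, median -0.21) held 0 calls too. So did the lists of cell type, fetal and sex chromosome markers, but some of these had few genes that passed the filter on low counts: 0 of 5 adipocyte, 2 of 6 pancreas and 3 of 8 cholangiocyte markers. The 25 cell cycle genes had a median of 0.77 with 0 called, and 22 had a log2 change above 0. At 0.05 mg/kg, where 2 libraries were lymphocyte-rich, that median was 1.29. It was 0.4 at 0.1 mg/kg and 1.98 at 5 mg/kg, where the lymphocyte and plasma cell markers summed to 60.3 to 153 CPM. Ccnd1, the cyclin of entry into the cycle, was at 4.5, 1.22, 1.84 and 1.64 CPM in controls and at 13.1, 12.9, 4.15, 12.3 and 7.97 CPM at 0.5 mg/kg (log2 change 2.12, adjusted p = 0.0727). The licensing gene Mcm6 was at 26.4 CPM in the lymphocyte-rich replicate 4 and at 8.49 to 13.6 in the other 4 dosed livers, against 2.19 to 7.75 in controls. Leaving out the 3 lymphocyte-rich libraries, chosen after seeing the data, gave Ccnd1 a log2 change of 2.04 (adjusted p = 0.0845). Mcm6 was then at 1.17 (adjusted p = 0.234), where it was at 1.5 with all libraries. Mcm5, at 2.34 CPM in replicate 4 and at 0 in the other dosed livers and the controls, went from 4.59 to 0. How far the other cells of replicate 4 set the values of the remaining cell cycle genes was not tested.

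The 5 dose groups of 9-month males were then set side by side, with the 4 control livers shared by every dose. At 0.05 mg/kg 1 gene was called (0.00879%) and at 0.1 mg/kg 2 genes (0.0176%), with 753 and 613 genes at an unadjusted p under 0.05, where 0.5 mg/kg had 1071. If no gene differed, a share of about 0.05 of all genes tested would fall under that p, here and in such counts below. The call at 0.05 mg/kg was Cox6b2 (3.87 ± 2.29 CPM), and those at 0.1 mg/kg were Gabpb2 and Stip1, both lower (log2 changes -1.46 and -2.26). At 5 mg/kg 1437 genes were called (12.6%). Ehhadh stood at 449 ± 119, 614 ± 40.4, 725 ± 102, 4244 ± 1536 and 15310 ± 5520 CPM from 0 to 5 mg/kg. Cyp4a14 stood at 6.1 ± 3.01, 16.1 ± 8.51, 24 ± 10.4, 282 ± 185 and 449 ± 187 CPM, and Cd36 at 7.58 ± 2.32, 17.2 ± 10.5, 17 ± 6.35, 93.1 ± 29.9 and 212 ± 110. Most of the rise of these 3 genes on the way to 0.5 mg/kg thus lay above 0.1 mg/kg. Cpt1b was at 5.41 ± 0.94 CPM at 0.05 mg/kg and 9.51 ± 3.47 at 0.1 mg/kg, beside 8.43 ± 5.54 in controls. The median log2 change of the omega-oxidation list was -0.01, 0.18, 2.21 and 3.37 at the 4 doses from 0.05 to 5 mg/kg, that of the peroxisomal list 0.13, 0.29, 0.73 and 1.19, and that of the mitochondrial list 0.12, 0.17, 0.71 and 0.97.

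**Figure D3:**
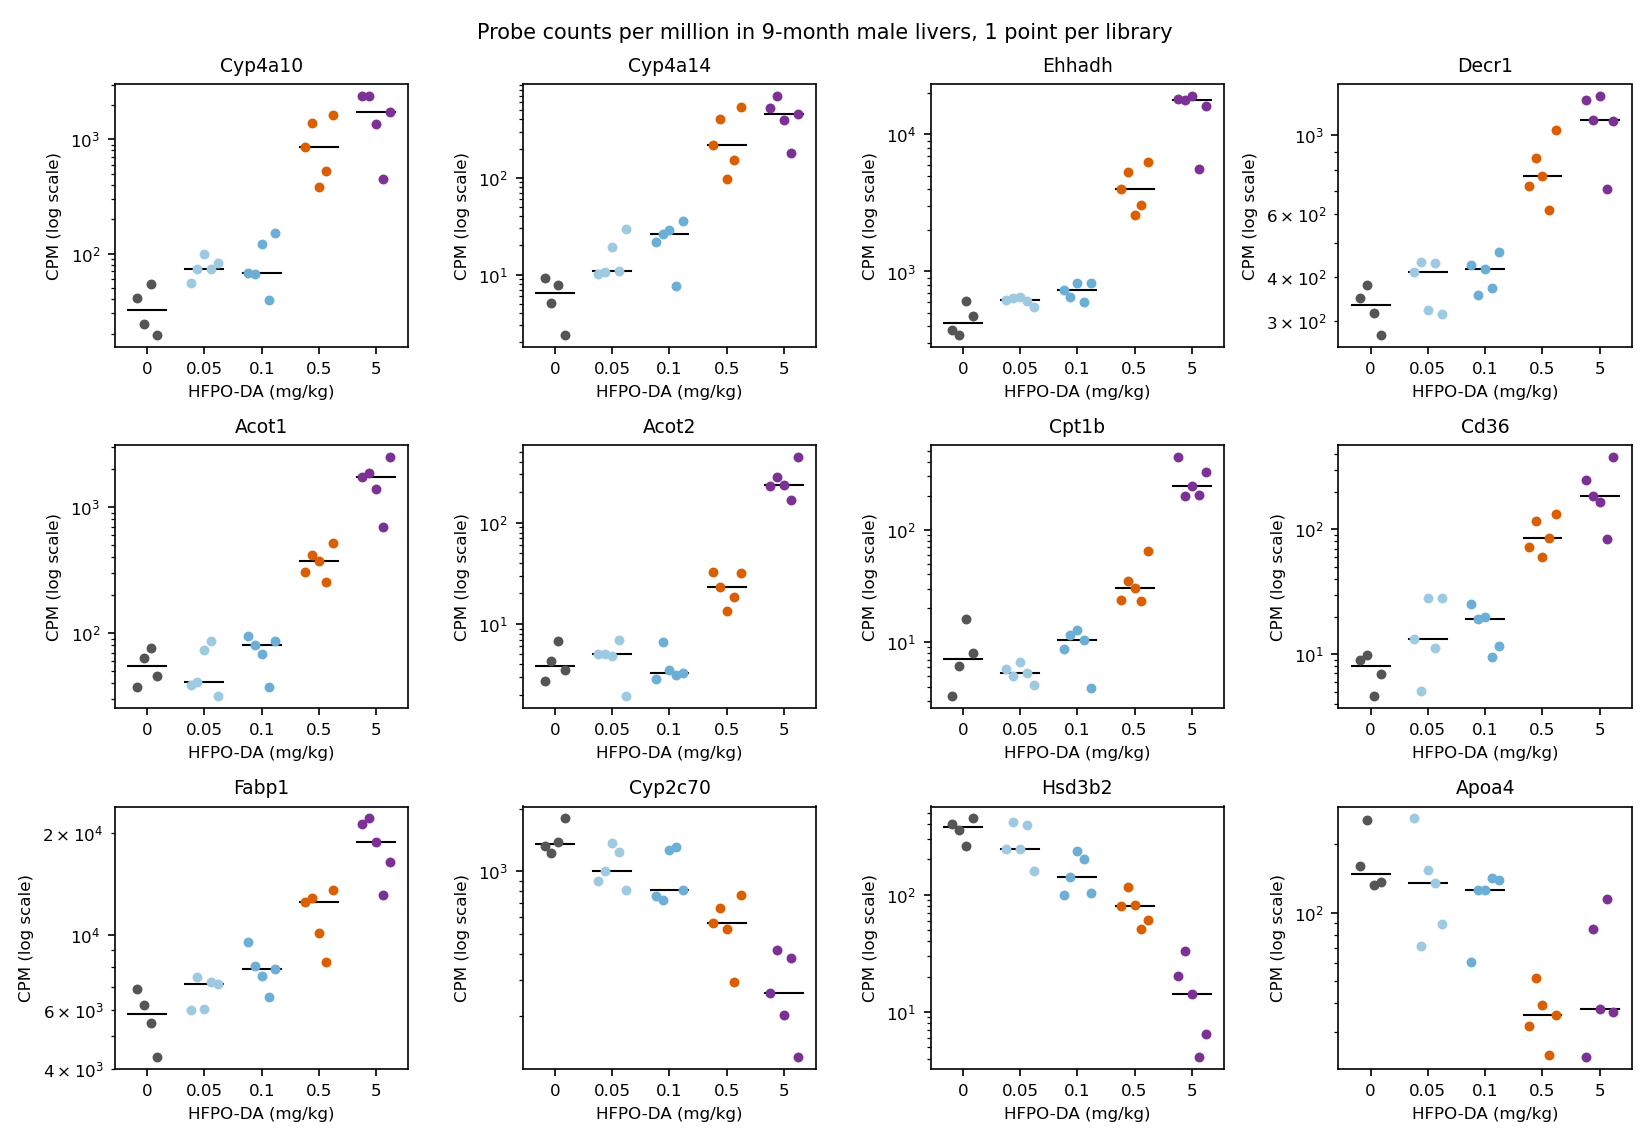
Level (CPM, log axis) against dose (mg/kg, evenly spaced) for 12 called genes in the 24 livers of 9-month males; each point is 1 library and each bar the group median. Cyp4a10, Cyp4a14, Ehhadh and Cd36 at 0.5 mg/kg lie above all controls, and Cyp2c70, Hsd3b2 and Apoa4 below them.

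A direct test of 0.5 against 5 mg/kg leaves the controls out of the log2 difference. Its scaling and estimate of the spread still come from all 24 libraries. The test called 530 of 11371 genes (4.66%), 286 higher and 244 lower at 0.5 mg/kg. Of the 61 genes called higher at 0.5 mg/kg, 18 were lower at 0.5 than at 5 mg/kg in this test and 0 were higher. The count was 294, 341 and 349 without 0.5 mg/kg replicates 1, 2 and 3, and 283 without 5 mg/kg replicate 5. Acot2 differed most clearly, with 23.7 ± 8.24 CPM at 0.5 and 272 ± 104 at 5 mg/kg (log2 difference -3.52 ± 0.31, adjusted p = 2.41e-07). Cpt1b (-3.0 ± 0.36), Cidec (-3.41 ± 0.7), Acot1 (-2.12 ± 0.33), Ehhadh (-1.85 ± 0.26), Crat (-1.47), Aldh3a2 (-1.16), Scd1 (-1.14), Hadhb (-0.8) and Fabp1 (-0.68) were also lower at 0.5 than at 5 mg/kg. The difference of Cyp4a14 was not called, at 282 ± 185 and 449 ± 187 CPM, nor that of Cyp4a10, at 955 ± 532 and 1654 ± 802. At 5 mg/kg, replicate 4 was lowest in both, at 179 CPM (others 395 to 690) and 452 (others 1352 to 2371), and in Ehhadh, at 5621 (others 15990 to 18910). Its hepatocyte markers summed to 43810 CPM (others 13810 to 20710). Replicate 5 there had 14.6 CPM of sex chromosome genes (others 56.5 to 72.3). The Cyp4a difference without these livers was not looked at. Retsat (812 ± 460 and 1071 ± 586 CPM), Pparg (10 ± 4.04 and 14.6 ± 4.79) and Acat1 (254 ± 31.2 and 236 ± 64.1) were not called between these doses either. Hsd3b2 and Cyp2c70, called lower at 0.5 mg/kg, were higher there than at 5 mg/kg: Hsd3b2 was at 77.6 ± 24.6 and 15.6 ± 11.7 CPM and Cyp2c70 at 563 ± 179 and 278 ± 122. Of the groups without a call at 0.5 mg/kg, the amino acid and urea list had a median log2 change of -1.12 at 5 mg/kg and the male-biased list of -2.69, beside -0.25 and -0.64 at 0.5 mg/kg.

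Not every called gene followed that order. In 7 of the 72 called genes the median at 0.1 mg/kg had already passed 0.75 of the log2 distance from the controls to 0.5 mg/kg, and in 24 it was below 0.25 of it. The 7 were Miga1, Stmn1, Wdr46, Pde4d and Mrpl40, called higher, and Stip1 and Lrtm1, called lower, and none of them is an enzyme of fatty acid oxidation. The list members Abcd2 (0.75) and Pparg (0.72) lay at or just under that cut. Pparg was at 1.66 ± 1.15 CPM in controls, 7.88 ± 2.27 at 0.05 mg/kg, 6.11 ± 2.79 at 0.1 mg/kg and 10 ± 4.04 at 0.5 mg/kg. Over the 61 genes called higher, the median share of that distance was 0.29 at 0.1 mg/kg and 0.25 at 0.05 mg/kg. These genes were chosen by their change at 0.5 mg/kg, so the shares depend on that choice and are a description. Wdr46, a gene of ribosome assembly, was at 17 ± 4.23, 23.6 ± 19.7, 60.6 ± 11.6, 57.1 ± 11.4 and 45.6 ± 8.1 CPM from 0 to 5 mg/kg. Pde4d, a cyclic AMP phosphodiesterase, was at 14.5 ± 2.19, 45.5 ± 21.4, 45 ± 18.4, 46.8 ± 13.8 and 95.1 ± 32 CPM. Stip1 was at 33.6 ± 14.2, 25 ± 10.8, 6.99 ± 2.41, 10.5 ± 3.65 and 10 ± 2.28 CPM, and Gabpb2 at 83 ± 10.7, 74.8 ± 20, 30.2 ± 6.07, 24 ± 6.72 and 21.9 ± 4.72. Over all 92 libraries, Wdr46 was at or below 20.7 CPM in 30 and at or above 35 in 62, with none between. The low livers included all 5 female livers at 0.1 mg/kg for 18 months (9.01 to 14.6 CPM) and all 3 male livers at 5 mg/kg for 18 months (5.59 to 14.2), so the low and high levels did not follow dose across the groups. Gabpb2 was at or below 43.4 CPM in 66 of the 92 libraries and at or above 51.1 in the other 26. In 18-month females the order of its levels was the opposite of that in 9-month males, with 22.6 to 31.4 CPM in the 5 controls and 67.2 to 76.1 in 4 of the 5 livers at 0.5 mg/kg. Wdr46 lost its call without 3 of the 9 libraries (adjusted p up to 0.061) and Pde4d without 8 (up to 0.116).

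**Figure D4:**
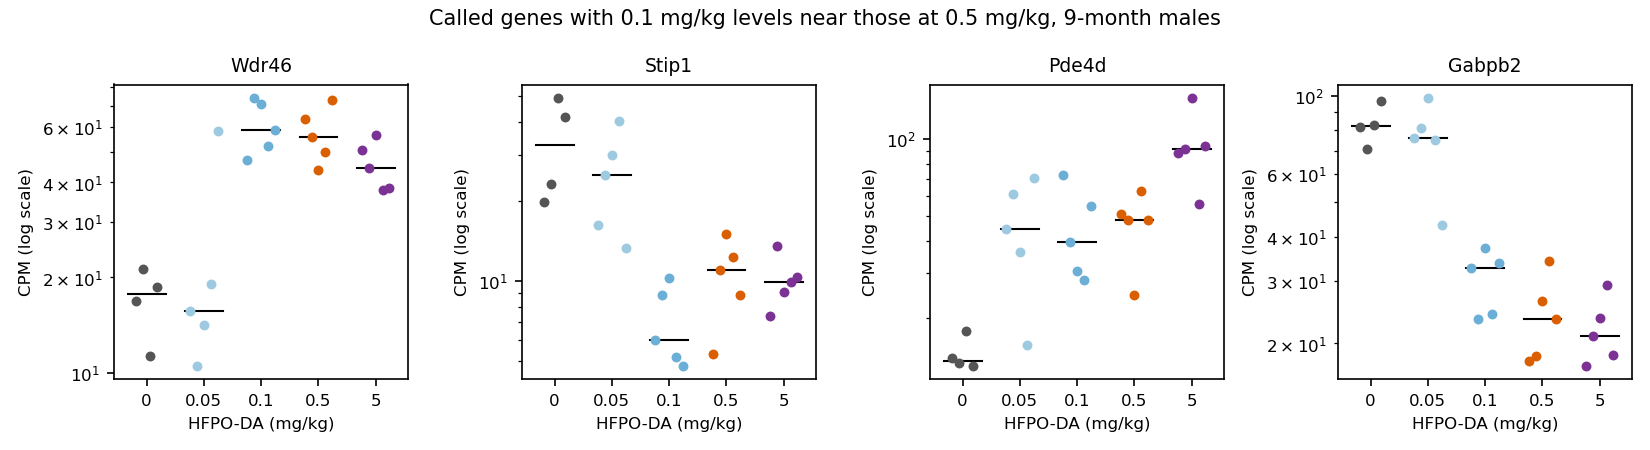
Level (CPM, log axis) against dose (mg/kg, evenly spaced) of Wdr46, Stip1, Pde4d and Gabpb2 in the 24 livers of 9-month males; each point is 1 library and each bar the group median. The 5 livers at 0.1 mg/kg lie among those at 0.5 mg/kg or close to them, with means of 60.6 and 57.1 CPM for Wdr46.

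The same dose was compared in 9-month females (5 dosed, 5 control livers) and in males dosed for 18 months (5 and 5), none of which share a library with the groups above. One fit of all 92 libraries and 13681 genes gave these values. Its levels differ slightly from those above. In females 4 genes were called (0.0292%, with 1482 at an unadjusted p under 0.05) and in 18-month males 82 (0.599%), 69 higher and 13 lower. In this fit 9-month males had 27 higher and 6 lower, so the 61 and 11 genes described above come from the fit of the 24 male livers and not from this one. Of the 61 genes called higher in 9-month males, 49 had a log2 change above 0 in females and 60 in 18-month males, where 46.8% and 50.7% of all genes were above 0. None of the 61 was called in females and 29 were in 18-month males. Their median log2 change was 0.36 in females and 1.45 in 18-month males. It was 2.06 in 9-month males, a value raised by the choice of genes called there, so the 3 medians are a description and no comparison. Of the 11 genes called lower, 7 were below 0 in females, with Gabpb2 called, and 10 in 18-month males, with Cyp2c70 called.

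The difference between the sexes was tested itself, as male response minus female response, and 39 genes were called (0.285%). Cd36 was at 8.36, 9.1, 4.29 and 6.49 CPM in male controls and at 68.1, 108, 55.5, 77.2 and 122 CPM in dosed males. Female controls were already at 36.9, 52.9, 64.5, 45.4 and 26.1 CPM and dosed females at 45.5, 91.6, 73, 60.1 and 80.4 CPM. The male response was larger by 2.97 ± 0.62 on the log2 scale (adjusted p = 0.024). Ehhadh was at 398, 506, 432, 677 and 563 CPM in female controls and at 819.8, 832, 960, 874 and 1005 CPM in dosed females, and the male response was larger by 2.43 ± 0.56 (adjusted p = 0.0429). Cox6b2, Slc35f2 and BC055324 were the other genes called higher at 0.5 mg/kg for which this difference passed, all at a few CPM, and Stip1 differed with the opposite sign (-2.8 ± 0.53, adjusted p = 0.0151). The differences of Cyp4a14 (4.09 ± 1.04, adjusted p = 0.0575) and Cyp4a10 (3.49 ± 0.97, adjusted p = 0.0909) were not called, nor was that of Acot1 (1.16 ± 0.87, adjusted p = 0.703).

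Many of the 39 genes were B cell genes, such as Cr2, Cd79b and Ighm. Cr2, a complement receptor of B cells, was at 370.1 CPM in dosed male replicate 4 and at 265 and 300 CPM in 2 female controls, while the other 9-month libraries of these groups had 4.2 or less. Without male replicate 4 at 0.5 mg/kg, 5 genes were called: Cd36, Stip1, Kifc5b, Ttll12 and Tuba1c. The call of Ehhadh was thus lost in that run, and over the 19 runs that each left out 1 library it was called in 6, Cd36 in 15 and Stip1 in 18. Cox6b2 was called in 4 of these runs, Slc35f2 in 8 and BC055324 in 13. The count also rested on the male controls, with 1, 0 and 2 genes called without control replicates 2, 3 and 4, and on female control replicates 1 and 3, with 5 and 4.

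Between 9 and 18 months in males, the difference of the response was called for 3 genes (0.0219%, with 445 at an unadjusted p under 0.05), Gabpb2, Fam43a and Gm4788, of which Gabpb2 was called at 9 months. Gabpb2 was at 65.6 to 90.3 CPM in 9-month male controls, 16.6 to 31 in 9-month dosed males, 20.1 to 25.4 in 18-month controls and 22.8 to 37.3 in 18-month dosed males. The levels of dosed livers thus overlapped between the durations, and those of the controls did not. Among the genes of fatty acid breakdown, Ehhadh rose by 4.34 in 18-month males (185 to 578 CPM in controls, 2422 to 13220 at 0.5 mg/kg) and Cyp4a14 by 4.67. Both low ends of Ehhadh came from livers that stood apart in Apoa4, control replicate 5 and dosed replicate 2, at 14240 and 13580 CPM of Apoa4 where the other 8 had at most 649. Their differences between durations were -1.11 ± 0.55 and 0.86 ± 1.0, both at an adjusted p of 1. Duration goes with age and with deeper libraries in this series, which cannot be told apart.

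**Figure D5:**
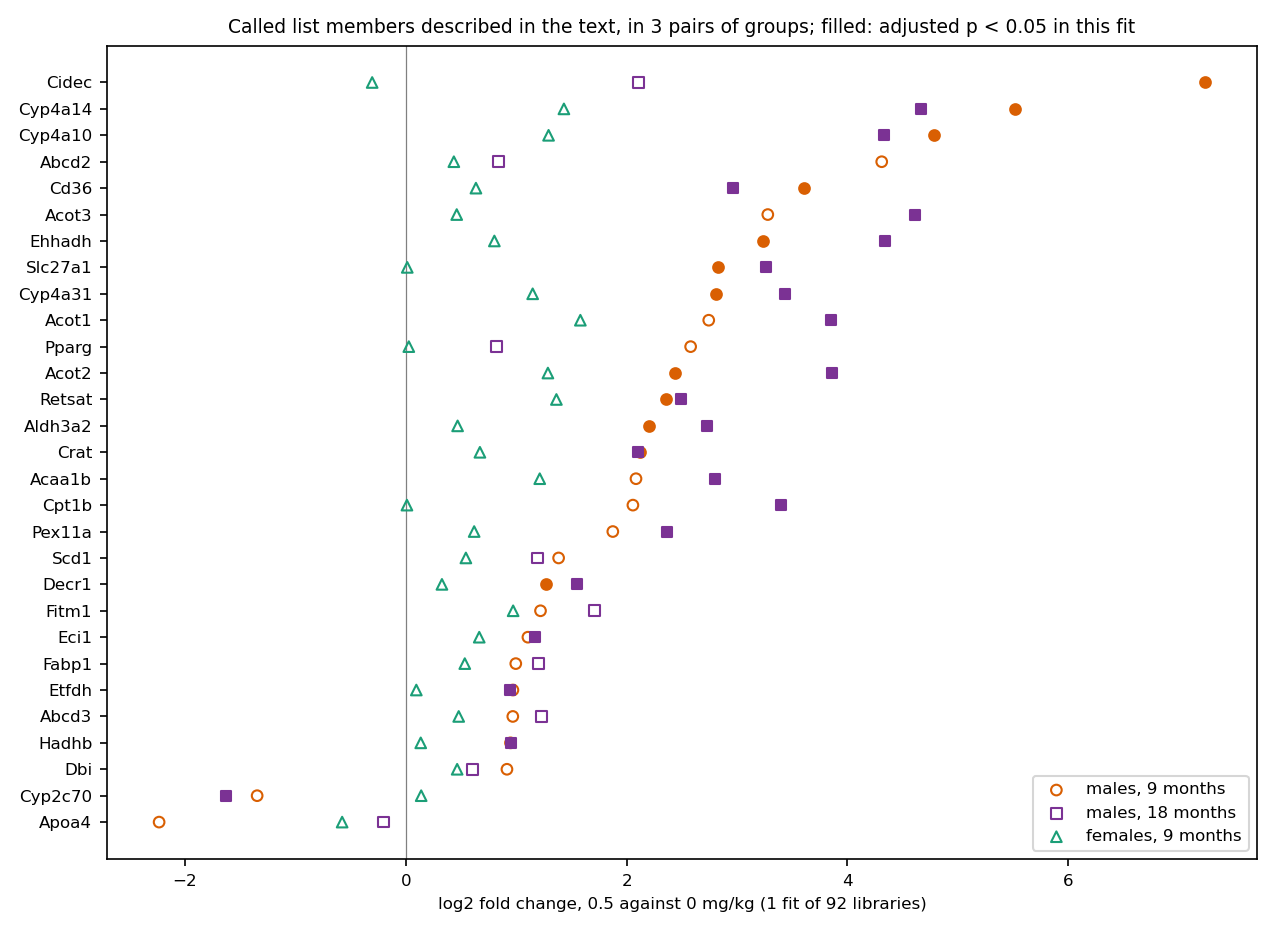
Log2 fold change at 0.5 against 0 mg/kg (horizontal axis) of the called list members described in the text, from 1 fit of all 92 libraries, in 9-month males (circles), 18-month males (squares) and 9-month females (triangles); a filled symbol has an adjusted p under 0.05 in that fit. Ehhadh is at 3.23 in 9-month males, 4.34 in 18-month males and 0.8 in 9-month females.

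The probes of a gene were also looked at one by one. Of the 72 called genes, 33 had 1 probe in the table, so their value rests on that probe. The 32 genes with 2 or more tested probes had 75 probes between them, and all 75 had the sign of their gene. A gene's value is the sum over its probes, so this agreement is in part built in. Tested singly, 34 of those 75 were called, where 86 of 15966 probes were called in all. The 75 belong to genes picked by the same test in the same libraries, so their larger share of calls is built in as well.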

How the data were processed

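The authors deposited 1 table of raw counts per TempO-Seq probe, with 30146 probes and 92 libraries. Per the submitters' processing notes, bcl2fastq 2.17.1.14 and Bowtie were used on the reads. The genome build, the probe sequences and the Bowtie version are not given in the sources used here. Probe counts were summed by symbol (21400 symbols, of which 6309 had more than 1 probe), so a symbol with several probes has a higher count, and levels were not compared between genes. Groups came from the labels.

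Genes were filtered with filterByExpr, scaled by TMM and tested with edgeR 4.0.16 (R 4.3.3) by its quasi-likelihood F test with robust estimation. The 24 libraries of 9-month males shared 1 estimate of the spread (common biological coefficient of variation 0.427), and the differences between sexes and durations came from a fit of all 92. P-values were adjusted by Benjamini-Hochberg over all genes tested. SE is the size of a log2 change over the root of its F statistic, and SD is over animals. Counting intervals are exact, at 95%, and floors are 3 counts over a group: both cover counting error only. The scripts were tested on simulated data. No pair of replicates agreed within sampling noise.

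The text names, among called genes with a mean of at least 10 counts, the 12 largest rises and falls, every called member of 36 lists (574 genes, 5 without a probe), the 3 members with the smallest p of each metabolic list, the 4 largest differences in each direction, and 14 genes in any case. Some genes within this rule are not reported here. The genes compared, the lists and the rule were chosen with earlier results of these data known. DESeq2 1.42.0, other scaling, filters, fits and thresholds, single probes, and leaving out each library were tried as alternatives.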

Additional observations from a re-analysis of the deposited data

Results flagged for a closer look

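In 112 groups of values looked at (each called gene under the naming rule that is reported here, and each marker sum, at 0 and at 0.5 mg/kg), 10 had a highest or lowest library whose gap to the nearest other was large for the range of the group. Chance flags about 1 in 20 such groups if their values are normally distributed, a shape that low counts do not have. Where all libraries but 1 are at 0, the gap fills the range and the group is flagged by construction. This holds for Lrtm1 at 0.5 mg/kg and for Slc35f2 and Sptlc3 in controls. At 0.5 mg/kg, replicate 4 was highest in lymphocyte and plasma cell markers (1156 CPM, others 35.7 to 72.8), in red blood cell markers (547 CPM, others 108 to 201) and in fetal and tumour markers (49.9 CPM, others 9.65 to 19.6). Of that fetal and tumour sum, Ly6d made up 30.1 CPM. Control replicate 1 was highest of the controls in lymphocyte markers (63.6 CPM, others 36.7 to 38.5).

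Single livers also stood apart in single genes. At 0.5 mg/kg, Abcd2 was at 8.14 CPM in replicate 1 (others 1.61 to 2.36), Cpt1b at 65.2 in replicate 5 (others 23.1 to 34.7), Sptlc3 at 14.9 in replicate 5 (others 1.32 to 4.88) and Lrtm1 at 0.181 in replicate 3 (others at 0). In controls, Slc35f2 and Sptlc3 were both at 0.183 CPM in replicate 4, each from 1 count where the other 3 controls had 0.

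The response at 0.5 mg/kg differed between the sexes at 9 months in these named genes, as male minus female log2 change with an adjusted p under 0.05 in edgeR's test of the difference: Cd36 by 2.97, Ehhadh by 2.43, Cox6b2 by 9.53, Slc35f2 by 8.04, Stip1 by -2.8, Tuba1c by -3.58 and Lysmd3 by -1.8. Over 19 runs that each left out 1 library, Cox6b2 was called in 4, Ehhadh in 6, Lysmd3 in 7 and Slc35f2 in 8. Tuba1c was called in 12, Cd36 in 15 and Stip1 in 18. Cox6b2 was at 6.1 and 5.8 CPM in female control replicates 1 and 3 and at 0.16 to 1.11 in the other female controls. Lysmd3 was at 4.65 ± 2.1 CPM in female controls and 14.3 ± 2.28 in dosed females, against 14 ± 3.63 and 12.2 ± 4.58 in males. The immune genes Ighv1-9 (14.68), Pla2g2d (12.04), Cr2 (11.53) and Ighv1-18 (10.52) differed as well, with high levels in female control replicates 1 and 3 (Ighv1-9 at 19.4 and 21.5 CPM, Pla2g2d at 68.1 and 52.3). Dosed male replicate 4 was high in Cr2, Pla2g2d (44.7 CPM) and Ighv1-18 (26.9) and had 2.25 CPM of Ighv1-9. Of the 19 runs, Ighv1-9 and Ighv1-18 were called in 7 each and Pla2g2d and Cr2 in 12 each. These fitted values start from levels at or near 0 in some groups, so their size depends on the prior count of the fit.

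Between 9 and 18 months in males, the response differed by -2.24 for Gabpb2, -3.18 for Fam43a and 16.48 for Gm4788. Fam43a was at 68.3 to 104 CPM in 9-month controls and at 7.57 to 18.2 in 18-month controls, with 65.2 to 163 and 74 to 185 in the dosed livers. Gm4788 was at 218 CPM in 1 of the 18-month controls and at 38.8 in 1 of the 9-month dosed livers, and at 0.855 or less in the other libraries of these 4 groups.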

How the results depend on the processing

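The counts of genes called at 0.5 against 0 mg/kg (61 higher and 11 lower) were within 1.5 times under DESeq2's size factors, without a filter on low counts, with probes tested singly, and without the 3 lymphocyte-rich libraries (80 and 15). They were 141 higher and 39 lower by DESeq2, 27 and 6 in 1 fit of all 92 libraries, 31 and 2 at an adjusted p under 0.01, and 25 lower with the 2 groups alone. An added fold of at least 1.5 could not change the counts, as the smallest fold of a called gene was 1.6 (Cspp1). Leaving out each library in turn gave 33 to 68 higher and 4 to 15 lower. The cause of these shifts was not tested. All 72 called genes were called by DESeq2, which gave 1235 genes at an unadjusted p under 0.05 and no adjusted p for 4. The genes called between 0.5 and 5 mg/kg (530) were 221 in the fit of all libraries, 189 at an adjusted p under 0.01, and 283 to 656 without each library in turn. At 0.1 mg/kg, 4 genes were called without the 3 lymphocyte-rich libraries, chosen after seeing the data, where 2 were called with them. The difference between sexes (39 genes) held 17 genes under DESeq2's size factors, 9 without a filter, 5 with the 4 groups alone, 0 at an adjusted p under 0.01, and 0 to 49 without each library in turn. Genes that were not called changed sign in 6 values: Lysmd3 to 0.02 without control replicate 2 (-0.42 to 0.02 over such runs), Wfdc3 to 1.45 without control replicate 4 (-1.59 to 1.45), Cyp1b1 to -0.54 (-0.54 to 2.09) and Fam43a to -0.26 (-0.26 to 0.21) without 0.5 mg/kg replicate 4, and these to -0.52 and -0.25 without the 3 lymphocyte-rich libraries. Of the values of named called genes, 322 kept and 92 lost their call when 1 library was left out, and 284 kept and 36 lost it under the other alternatives, all in the same direction. These tallies leave out the stricter adjusted p and the single probes. They include the added fold, under which no call could be lost. Named genes that were not called became called in 5 values when 1 library was left out and in 24 under the other alternatives, among them Aqp3 and Ucp2 by DESeq2, with the 2 groups alone and without the 3 lymphocyte-rich libraries. Genes under 1 CPM rest on a few counts a library. No paired analysis was possible because the labels give each animal its own number and no number is shared between groups.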

Other observations

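The other genes called higher at 0.5 mg/kg by edgeR's quasi-likelihood test belong to no list and were chosen after their values were seen. Nln, a mitochondrial and cytosolic peptidase gene, was at 14.9, 20, 15.7 and 12.4 CPM in controls and at 38.4, 52.7, 42.4, 36.2 and 53.1 CPM at 0.5 mg/kg (log2 change 1.5 ± 0.23, adjusted p = 0.000448), and at 48.9 ± 14.1 CPM at 5 mg/kg, where the direct test of the 2 doses did not call it. Casc4, a Golgi membrane protein gene, had 5.52 ± 2.6 CPM in controls, 27 ± 8.78 at the lower and 71 ± 29.1 at the higher of these doses, and Bhlhb9 at 1.82 ± 0.04, 9.55 ± 4.27 and 35.8 ± 8.54. Both differed between 0.5 and 5 mg/kg (adjusted p = 0.00566 and 0.000999). Mmd had 71.5 ± 17.1 CPM in controls, 144 ± 30.2 at 0.5 mg/kg and 142 ± 34.2 at 5 mg/kg. These 4 genes were called in all 9 runs that left out 1 library.

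Acad12, of the acyl-CoA dehydrogenase family, rose from 23 ± 3.02 to 51.1 ± 20 CPM and Hsdl2, a dehydrogenase of peroxisomes, from 20.7 ± 3.96 to 41.7 ± 7.71, with calls kept in 4 and 2 of the 9 runs. Spon2, Trim6, Atp10d, Pigp, Rab9, Miga1, Stmn1, Mrpl40, Ttll11, Ssh2 and BC055324 were called with all libraries and lost in 5 to 8 of the 9 runs. In Ttll11, dosed replicates 1 and 2 were at 0.95 and 0.72 CPM, within reach of the controls (0.18 to 1.46), and the other 3 at 6.15 to 12.9.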
